A study of Mus musculus with 13 samples.

Results

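The clock output transcription factors described here are 7 genes taken by symbol from the 32285 genes of the count matrices: Dbp, Tef, Hlf, Nfil3, Ciart, Bhlhe40 and Bhlhe41. They were measured by single-nucleus RNA sequencing of whole frozen hippocampus in 13 samples from female mice of a hybrid strain (C3HB6F1 in the sample labels, C3B6F1 in the series' design text), with 1 library per sample. Nothing in the labels says that samples of a group come from separate animals, so that a sample is called a mouse below for brevity and p-values measure the spread between these samples. Young mice fed ad libitum were 5 months old (n = 3), and old mice fed ad libitum were 24 months old (n = 3). Mice on acute dietary restriction were 24 months old and restricted from 20 months (n = 3). Mice on long-term dietary restriction were 24 months old and restricted from 5 months (n = 4). Nuclei were sorted on a DNA stain, with no gate for a cell type. The size of the ration, the hour of feeding and the hour at which tissue was taken are not given in the sources used here, so hour of day and group cannot be told apart. The comparisons asked what age and a late or an early start of restriction do to transcripts in each cell type.

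The circadian clock is a feedback loop in which CLOCK and BMAL1 (Arntl) bind E-box sequences and switch on their own repressors, the PER and CRY proteins. The loop also drives output transcription factors that carry the rhythm to other genes. Dbp, Tef and Hlf are activators of the PAR bZIP family and bind D-box sequences, and Nfil3 (E4BP4) is a repressor that competes for the same sites. Ciart (CHRONO) and the basic helix-loop-helix factors Bhlhe40 (DEC1) and Bhlhe41 (DEC2) repress transcription driven by CLOCK and BMAL1 and so feed back on the loop. Transcripts of these genes cycle over the day in many tissues, brain regions outside the central pacemaker among them, and restricted feeding is known to move their phase in peripheral tissues.

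In mm10 coordinates of the GENCODE annotation, Dbp lies at chr7:45705088-45710203 on the plus strand and Tef at chr15:81802421-81826863 on the plus strand. Hlf lies at chr11:90336536-90390895 and Nfil3 at chr13:52967209-52981073, both on the minus strand. Ciart lies at chr3:95878503-95882251 on the minus strand, Bhlhe40 at chr6:108660629-108666925 on the plus strand and Bhlhe41 at chr6:145858243-145865558 on the minus strand. The whole 3749 bases of Ciart lie opposite the antisense gene C920021L13Rik, and Dbp shares 737 bases with Sphk2 on the other strand. Whether counting used strand is not given in the sources used here, so reads of such pairs may not be separated. In CA1-like nuclei, with counts pooled over mice, the antisense gene had 16.8 CPM in old ad libitum mice, 20.0 CPM under acute and 21.4 CPM under long-term restriction, where Ciart had 4.82, 15.3 and 10.4 CPM. In young mice the antisense gene had 21.8 CPM and Ciart 5.36 CPM. In oligodendrocyte-like nuclei Gm17597, which shares 193 bases with Tef on the other strand, had 9 UMIs in old ad libitum mice, 21 under acute and 18 under long-term restriction, where Tef had 571, 890 and 859 UMIs.

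RefSeq promoters (GRCm38.p6, 250 bases before to 50 bases after the start) were found for 6 of the 7 genes, with 7 promoters in all since Tef has 2. They were read because an E-box is the sequence through which the core loop drives its outputs. The stretches below hold the E-box CACGTG, or for Hlf the cAMP response element TGACGTCA, in capitals, 5′ to 3′ on the strand of the gene.
Tef, upstream promoter, chr15:81802521-81802576: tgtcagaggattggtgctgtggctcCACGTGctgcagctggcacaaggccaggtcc
Tef, downstream promoter, chr15:81811251-81811306: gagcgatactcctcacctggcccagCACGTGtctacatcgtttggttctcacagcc
Ciart, chr3:95882242-95882369, minus strand: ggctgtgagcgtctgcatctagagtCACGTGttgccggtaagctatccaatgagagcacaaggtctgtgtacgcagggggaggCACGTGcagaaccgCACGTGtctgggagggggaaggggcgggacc
Bhlhe41, chr6:145865543-145865598, minus strand: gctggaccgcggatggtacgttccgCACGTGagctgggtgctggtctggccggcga
Hlf, chr11:90390894-90390951, minus strand: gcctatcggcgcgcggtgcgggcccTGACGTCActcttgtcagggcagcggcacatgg

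Ciart held 3 E-boxes, at -116, -58 and -44 from its start, and each Tef promoter and Bhlhe41 held 1, so that 3 of the 6 matched genes had this motif. The windows of Dbp, Hlf and Nfil3 held no CACGTG, which says nothing of E-boxes outside these windows. Of all 32851 promoters of the same length, 7.15% held CACGTG, a palindrome that reads the same on both strands. The cAMP response element of Hlf lay at -9 and occurred in 1.79% of all promoters. No window held the D-box TTANGTAA (2.32% of all promoters) or the ROR element (2.46%), each searched on both strands, which says only that these letters are not in these windows.

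The libraries held 38546292 to 80538090 UMIs and 3524 to 12368 barcodes. After filtering, 71495 of 98041 nuclei fell into 15 classes named from marker genes, each written here as X-like, and 26546 nuclei in unnamed clusters were not used. Classes included dentate granule-like, CA1-like and CA3-like neurons, as a hippocampal dissection would hold, and 11 classes had enough nuclei in every group to be tested. Endothelial-like and mural-like sums reached 20 nuclei in only 9 libraries each, so that their groups held 2 or 3 mice. The libraries numbered 1 in each group stood apart, with 48 to 183 oligodendrocyte-like nuclei each against 624 to 1649 in the other libraries. Of 104391 distinct barcodes, 1358 (1.30%) occurred in 2 or more libraries, with at most 40 shared by any pair. Granule-like nuclei were 2 clusters in unequal mix: cluster 0 held 1626 to 3274 nuclei per young mouse and 133 to 473 per old ad libitum mouse, and cluster 1 held 227 to 648 and 301 to 2029.

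Levels are given per class as counts per 1e6 UMIs of that class in that mouse (CPM). They compare a gene between classes, and are not set against each other between genes, because 3′ counts in nuclei also depend on gene length and introns. A gene passed the count filter in 57 of 77 gene and class pairs: Tef and Hlf in 11 of 11 classes, Bhlhe41 in 9, Dbp in 8, Ciart and Bhlhe40 in 7 and Nfil3 in 4. The order of the 9 classes measured in all 13 mice is by mean log2 CPM, with neighbours in the order compared within mice by an exact two-sided sign-flip permutation test, adjusted over 56 neighbour pairs, of which 19 differed.

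Among the activators, Dbp was highest of the 9 classes in astrocyte-like nuclei in 13 of 13 mice, at a geometric mean of 39.0 CPM (log2 5.29 ± 0.37, SD, n = 13). It followed at 19.2 CPM in CA1-like nuclei, 14.7 in subicular or cortical excitatory-like, 11.3 in oligodendrocyte precursor-like, 9.95 in microglia-like, 9.74 in granule-like, 8.16 in inhibitory-like, 6.74 in CA3-like and 5.09 CPM in oligodendrocyte-like nuclei. The lower places are not firm: pooled counts gave 15.6 CPM in microglia-like (10.96 to 21.46), 7.46 in oligodendrocyte-like and 7.31 CPM in CA3-like nuclei, and CA3-like nuclei were lowest without the libraries numbered 1. Astrocyte-like exceeded CA1-like nuclei by 1.03 ± 0.32 on the log2 scale (exact permutation test, adjusted p = 0.00273), and CA1-like exceeded subicular or cortical-like nuclei by 0.38 ± 0.38 (adjusted p = 0.0107). None of the other 6 neighbour pairs of Dbp passed. In the rarer vascular classes, with counts pooled over mice, Dbp had 42.9 CPM in endothelial-like nuclei (95% exact Poisson interval 31.3 to 57.4, counting error only) and 46.6 CPM in mural-like nuclei (33.3 to 63.5).

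Tef had 165 CPM in astrocyte-like nuclei (geometric mean; log2 7.37 ± 0.32) and was highest there, among the 9 classes, in 11 of 13 mice. Granule-like nuclei followed at 124 CPM and oligodendrocyte-like nuclei at 111 CPM, and the other classes ran through 103 in precursor-like, 101 in subicular or cortical-like, 97.5 in CA1-like and 95.3 in microglia-like nuclei to 68.2 in CA3-like and 67.9 CPM in inhibitory-like nuclei. The span from highest to lowest of these classes was 2.43-fold. In fibroblast-like nuclei, which are outside this order, Tef had 200.4 CPM pooled over mice (exact Poisson interval 182 to 220), against 170.0 CPM (165 to 176) pooled in astrocyte-like nuclei, and in single libraries it ran from 78.3 to 319 CPM with a median of 193 CPM. Astrocyte-like exceeded granule-like nuclei by 0.41 ± 0.25 (adjusted p = 0.00497) and the classes from granule-like to microglia-like nuclei did not differ from their neighbours beyond their spread. Microglia-like exceeded CA3-like nuclei by 0.48 ± 0.54 (adjusted p = 0.0325), but this direction turned with TMM scaling over all sums, where microglia-like nuclei were the lowest class at a mean log2 CPM of 5.91, against 6.20 in CA3-like nuclei. On that scale astrocyte-like and granule-like nuclei lay closer, at 7.32 and 7.21.

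Hlf was high in subicular or cortical excitatory-like nuclei (119 CPM, log2 6.89 ± 0.13), astrocyte-like nuclei (110 CPM) and granule-like nuclei (101 CPM), 3 classes whose neighbours did not differ. It stood at 60.1 CPM in precursor-like, 59.6 in microglia-like, 46.2 in CA1-like, 21.4 in CA3-like, 18.9 in inhibitory-like and 8.64 CPM (log2 3.11 ± 0.87) in oligodendrocyte-like nuclei. The microglia-like mean is lowered by young replicate 1, with 0 UMIs in 20 nuclei: the median over 13 mice was 85.7 CPM and the pooled level 90.9 CPM (79.2 to 103.8), against 61.4 CPM pooled (56.8 to 66.3) in precursor-like nuclei. Granule-like exceeded precursor-like nuclei by 0.74 ± 0.35 in 13 of 13 mice (adjusted p = 0.00273). CA1-like exceeded CA3-like nuclei by 1.11 ± 0.69 and inhibitory-like exceeded oligodendrocyte-like nuclei by 1.13 ± 0.81, each in 12 of 13 mice (adjusted p = 0.00342 for both). The fibroblast-like nuclei, 793 in all and too unevenly spread over mice to be tested, held 1003 Hlf UMIs, or 454 CPM pooled over mice (exact Poisson interval 426 to 483). In single libraries this level ran from 166 CPM in 1 young mouse to 631 CPM in 1 mouse on long-term restriction, with a median of 380 CPM.

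Nfil3, the D-box repressor, was sparse throughout. It had 4.31 CPM in granule-like nuclei (log2 2.11 ± 0.41), the highest class in only 1 of 13 mice, 3.75 in subicular or cortical-like, 2.89 in inhibitory-like, 2.85 in CA1-like, 2.84 in oligodendrocyte-like, 2.63 in CA3-like, 1.30 in microglia-like, 0.824 in precursor-like and 0.769 CPM in astrocyte-like nuclei. The last values lie near the level that a sum with no UMI receives from the prior count, and pooled counts gave 3.97 CPM in granule-like and 0.364 CPM (0.157 to 0.717) in astrocyte-like nuclei. The place of microglia-like nuclei in this order is not firm, with 7 UMIs, 8 of 13 sums at 0 and 2.95 CPM pooled (1.18 to 6.07), beside 2.37 CPM pooled in CA1-like nuclei. Subicular or cortical-like exceeded inhibitory-like nuclei by 0.38 ± 0.37 (adjusted p = 0.0137), the only neighbour pair of Nfil3 that passed. No Nfil3 UMI was counted in 383 endothelial-like nuclei, which allows up to 2.86 CPM (3 UMIs of their total).

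Of the E-box repressors, Ciart had 8.31 CPM in CA1-like nuclei (log2 3.05 ± 0.74) and 8.26 in subicular or cortical-like nuclei. It had 6.44 in granule-like, 6.37 in precursor-like, 5.95 in astrocyte-like, 5.18 in oligodendrocyte-like, 4.69 in inhibitory-like, 4.54 in CA3-like and 1.12 CPM in microglia-like nuclei. Subicular or cortical-like exceeded granule-like nuclei by 0.36 ± 0.47 (adjusted p = 0.0354), and CA3-like exceeded microglia-like nuclei by 2.02 ± 1.51 (adjusted p = 0.00684). Only 7 Ciart UMIs were counted in microglia-like nuclei of 13 mice, and 9 of those 13 sums held none. The pooled level was 2.95 CPM (1.18 to 6.07), beside 5.62 CPM (4.88 to 6.45) in CA3-like nuclei. Sums without a UMI take their level from the prior count, so the difference from CA3-like nuclei and its p-value are not firm. Outside the 9 classes, pooled Ciart was 11.4 CPM in endothelial-like (5.92 to 20.0) and 9.86 CPM in macrophage-like nuclei (5.84 to 15.6), beside 9.31 CPM pooled in CA1-like nuclei (8.64 to 10.0). The macrophage-like level rests on 18 UMIs, and 46.6% of the barcodes in that cluster had been removed as doublets. Median UMIs per retained macrophage-like nucleus ran from 1262 to 7302 over libraries, and the part of remaining doublets was not tested.

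Bhlhe40 and Bhlhe41, paralogues with like E-box-binding domains, led in different glia among the 9 ordered classes. Bhlhe40 was highest of these in astrocyte-like nuclei in 13 of 13 mice, at 53.5 CPM (log2 5.74 ± 0.28), and had 17.1 in CA1-like, 12.8 in granule-like, 12.2 in subicular or cortical-like, 9.29 in precursor-like, 7.27 in oligodendrocyte-like, 5.00 in CA3-like, 3.39 in inhibitory-like and 2.87 CPM in microglia-like nuclei. The order of the last pair is not firm: microglia-like nuclei held 12 Bhlhe40 UMIs, with 5 sums at 0, and the pooled level was 5.05 CPM (2.61 to 8.82) against 2.93 CPM (2.45 to 3.47) in inhibitory-like nuclei. Endothelial-like nuclei, outside the order, had 58.2 CPM pooled (44.5 to 74.8), beside 56.2 CPM (53.1 to 59.4) in astrocyte-like nuclei. Astrocyte-like exceeded CA1-like nuclei by 1.64 ± 0.49 and CA1-like exceeded granule-like nuclei by 0.43 ± 0.29, each in 13 of 13 mice (adjusted p = 0.00273 for both). Bhlhe41 was highest in microglia-like nuclei in 12 of 13 mice, at 56.8 CPM (log2 5.83 ± 0.59). It followed at 29.7 in astrocyte-like, 28.1 in oligodendrocyte-like, 26.5 in CA1-like, 24.7 in granule-like, 16.5 in subicular or cortical-like, 15.1 in precursor-like, 10.2 in inhibitory-like and 4.77 CPM in CA3-like nuclei. Microglia-like exceeded astrocyte-like nuclei by 0.94 ± 0.59 (adjusted p = 0.00342), although 20 to 303 nuclei per mouse stood behind the microglia-like value. With TMM scaling the means lay closer, at 5.17 in microglia-like, 4.96 in CA1-like and 4.85 in astrocyte-like nuclei (log2 CPM). Granule-like exceeded subicular or cortical-like nuclei in 13 of 13 mice (0.59 ± 0.39, adjusted p = 0.00273), and inhibitory-like exceeded CA3-like nuclei by 1.10 ± 0.72 (adjusted p = 0.0041). The class of highest mean for each gene, which for Hlf, Ciart and Nfil3 led in only 8, 3 and 1 of 13 mice, was the same with TMM scaling over all sums, and, except for Ciart, without the libraries numbered 1, where subicular or cortical-like nuclei had the higher mean of Ciart.

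**Figure D1:**
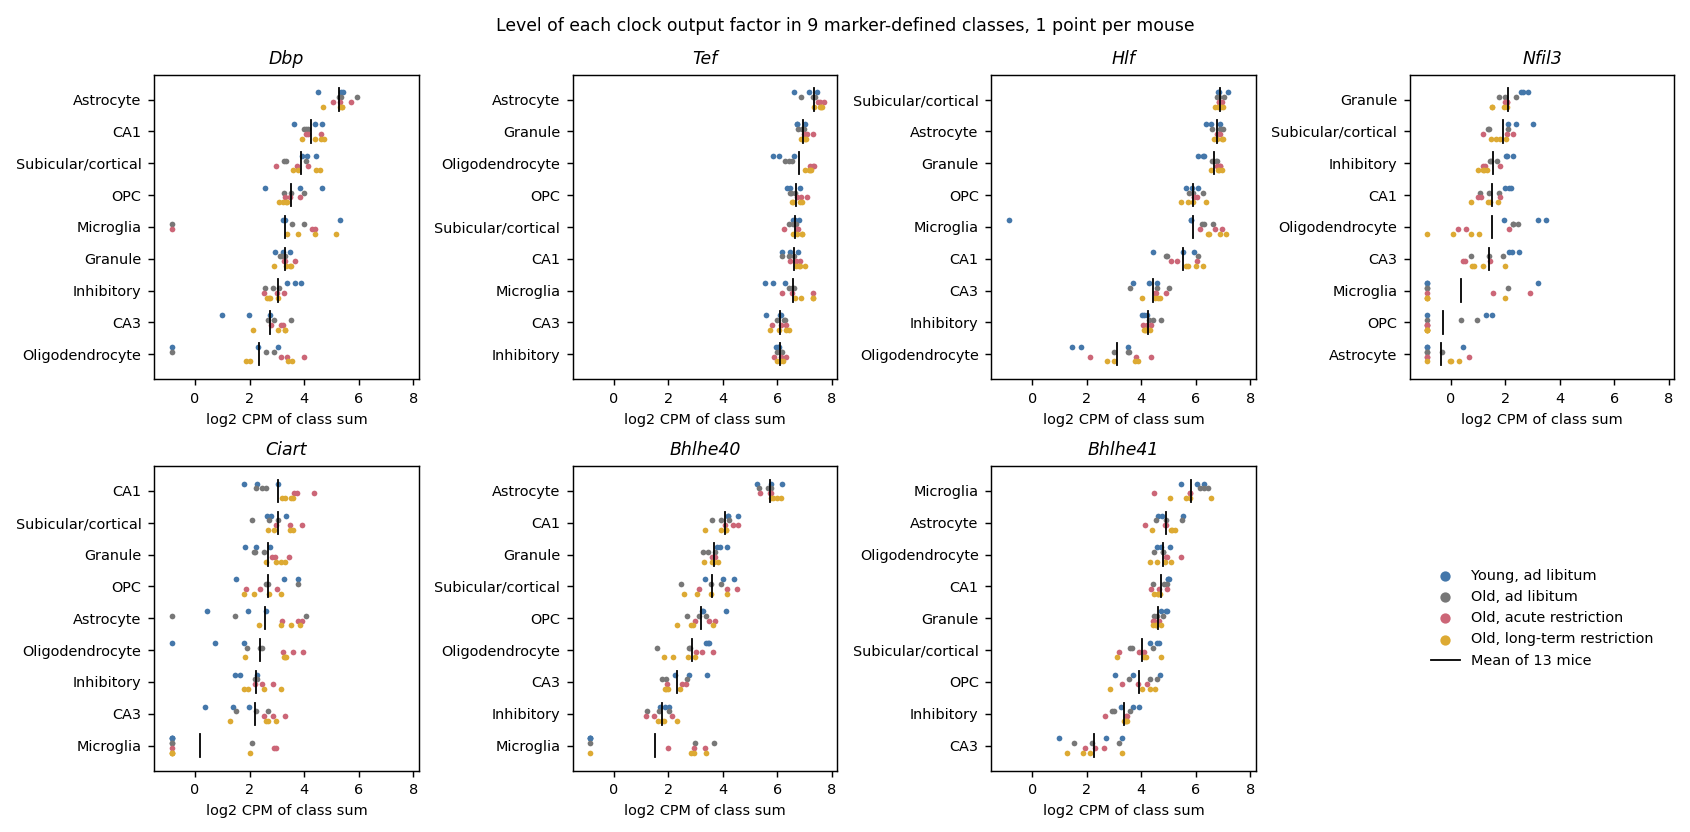
Log2 CPM of each clock output factor (x axis) in the 9 classes measured in all 13 mice (y axis, highest mean at the top), 1 point per mouse coloured by group, with a black line at the mean. Dbp and Bhlhe40 led in astrocyte-like nuclei in 13 of 13 mice and Bhlhe41 in microglia-like nuclei in 12 of 13, while Tef spanned 2.43-fold over these 9 classes.

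Across the 4 comparisons between groups, few gene and class pairs passed edgeR's quasi-likelihood test at a Benjamini-Hochberg adjusted p below 0.05, adjusted over all genes of a class. Ageing (old against young, both ad libitum) gave 2 of 57 pairs, both higher in old mice and both Hlf, against 2.07% of all 109665 gene and class pairs tested (1.24% called higher). Long-term restriction gave 1 of 57 (0.0474% of all pairs called, 0.0173% higher) and acute restriction 1 of 57 (0.207% of all pairs called, 0.0903% higher), in each case Tef in oligodendrocyte-like nuclei and higher than in old ad libitum mice. Long-term against acute restriction gave 0 of 57 (0.0119% of all pairs called, 0.00274% higher), with 3 pairs at an unadjusted p below 0.05 and 0 called by DESeq2. The restriction comparisons share the same old ad libitum mice, and the ageing comparison uses these mice as well.

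Signs of the fitted changes were uneven under acute restriction and between the 2 restriction regimes. Under acute restriction 68.4% of the 57 member pairs were positive (median log2 change 0.17), beside 50.2% of all pairs tested, and under long-term restriction 57.9% (median 0.09) beside 50.5%. For long-term against acute restriction, which uses the same acute mice, 35.1% were positive (median -0.07) beside 49.4%. With ageing 56.1% were positive (median 0.07) beside 47.7%. Groups did not overlap, on TMM-scaled log2 CPM, in 9 pairs higher and 1 lower under acute restriction (5.73% and 6.59% of all pairs), in 6 higher and 2 lower under long-term restriction (3.69% and 3.79%), and in 10 higher and 5 lower with ageing (12.4% and 9.49%). Between long-term and acute restriction 1 pair was higher and 2 were lower without overlap (2.75% and 2.31%). Pairs of 1 gene share its regulation and their mice and are not independent.

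**Figure D2:**
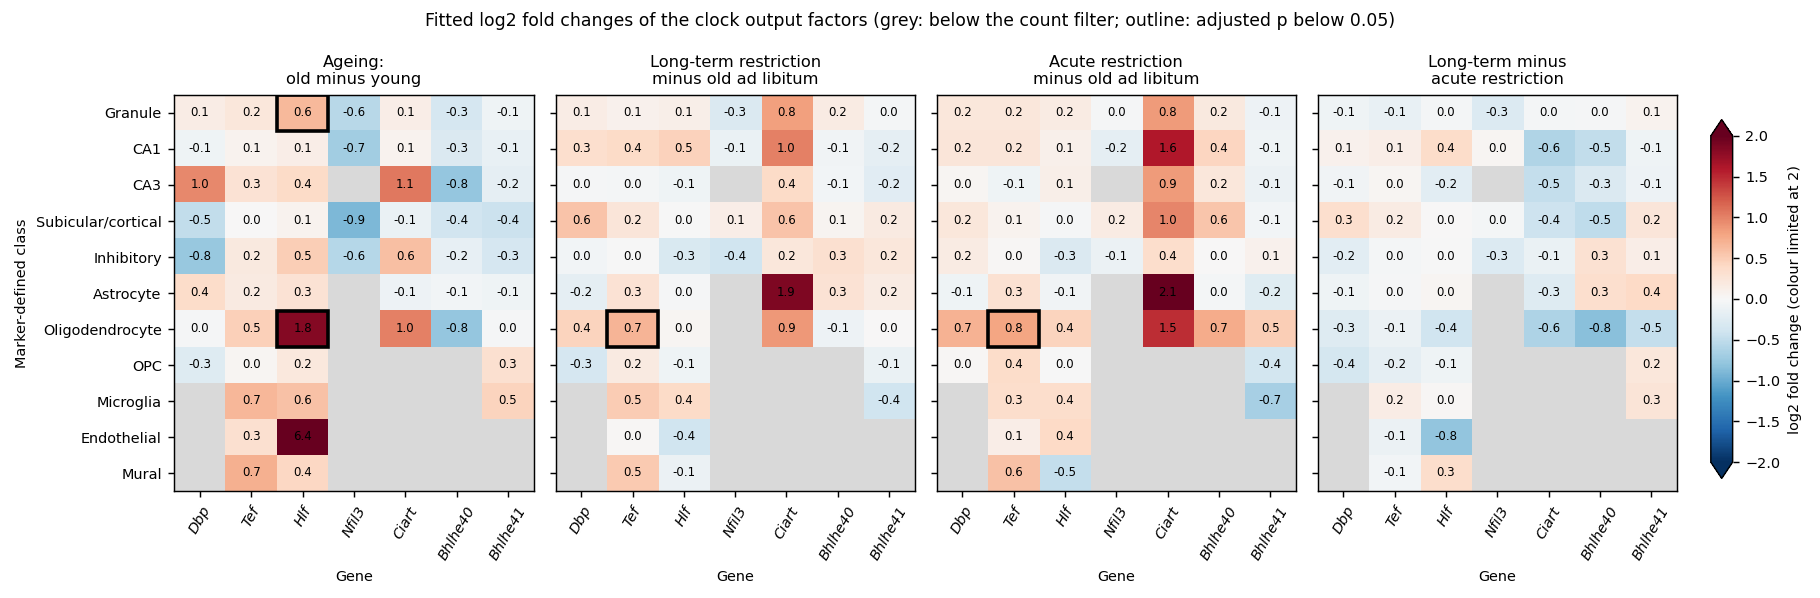
Log2 fold change from edgeR for each clock output factor (x axis) in each tested class (y axis), 1 panel per comparison, red for higher and blue for lower in the group named first, with colour limited at 2 in either direction. Outlined cells passed an adjusted p of 0.05: Hlf in granule-like and oligodendrocyte-like nuclei with ageing, and Tef in oligodendrocyte-like nuclei under long-term and acute restriction. The Hlf value of endothelial-like nuclei rests on 0 UMIs in young mice.

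Tef rose in oligodendrocyte-like nuclei under both restriction regimes. Its level was 76.8, 86.9 and 93.5 CPM in the 3 old ad libitum mice, 148, 159 and 162 CPM in the 3 mice on acute restriction and 142, 146, 129 and 149 CPM in the 4 mice on long-term restriction. All 7 restricted mice lay above all 3 old ad libitum mice, and above the young mice at 96.9, 56.3 and 66.3 CPM. The increase was 1.73-fold under acute restriction (log2 0.79 ± 0.14, SE; adjusted p = 0.0012, 1.84% of all genes in this class called) and 1.60-fold under long-term restriction (log2 0.68 ± 0.13, SE; adjusted p = 0.0156, 0.343% of genes called). Between long-term and acute restriction the difference was -0.11 ± 0.13 with an interval of -0.37 to 0.14 (1.96 SE), and was not called.

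The UMIs behind these levels were fewest in the libraries numbered 1: 31, 300 and 240 Tef UMIs in the old ad libitum mice, 39, 491 and 360 in the acutely restricted mice and 46, 292, 258 and 263 in the long-term group. Median UMIs per oligodendrocyte-like nucleus were 1990 to 3169 in old ad libitum mice, 1578 to 1890 under acute and 1673 to 2301 under long-term restriction, and their part in the result was not tested beyond a fit with this depth as a covariate. In that fit the acute value was 0.81 (adjusted p = 0.0499) and the long-term value 0.69 (adjusted p = 0.0522). The acute call held without each library in turn (log2 0.77 to 0.89, adjusted p = 0.00069 to 0.0234). The long-term call was lost, at a log2 change of 0.66 to 0.76, without old ad libitum replicate 2 (adjusted p = 0.181) or 4 (0.0839) or long-term replicate 2 (0.0637) or 4 (0.0690). Of the marker lists of other cell types, 2 did not overlap between old ad libitum and acute mice in the oligodendrocyte-like sums, both lower under acute restriction: the 6 committed precursor markers (1072 to 1132 against 879 to 1017 CPM) and the 6 Cajal-Retzius markers (16.2 to 26.9 against 3.81 to 15.8 CPM). Under long-term restriction the 6 macrophage markers were higher (0 to 1.45 against 2.50 to 9.23 CPM) without overlap. The part of these lists in the result was not tested. The 7 granule markers summed to 940 to 991 CPM in old ad libitum mice, 871 to 1031 under acute and 788 to 977 under long-term restriction, ranges that overlap, and the 8 microglia markers to 35.1 to 54.5, 49.5 to 69.4 and 43.5 to 54.3 CPM.

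The response of Tef differed between oligodendrocyte-like and granule-like nuclei. In granule-like nuclei its level was 109, 126 and 121 CPM in old ad libitum mice, 157, 136 and 127 CPM under acute restriction and 132, 130, 118 and 121 CPM under long-term restriction. The lowest acute mouse lay just above the highest ad libitum mouse in CPM, the groups overlapped on the TMM scale, and long-term mice overlapped with ad libitum mice on both scales. The fitted changes were 0.23 ± 0.12 (adjusted p = 0.902) and 0.09 ± 0.11 (adjusted p = 0.999). A test of the difference in a fit with a term per mouse gave a larger change in oligodendrocyte-like nuclei by 0.67 ± 0.14 for long-term (adjusted p = 0.00841, 0.313% of 14684 genes called) and by 0.66 ± 0.14 for acute restriction (adjusted p = 0.00561, 0.974% called). The same difference between long-term and acute restriction was 0.01 ± 0.13 and was not called (0.0477% called). No other pair of classes was compared in this way. In astrocyte-like nuclei, the highest of the 9 ordered classes for Tef, it was 192.6 ± 14.9 CPM (SD, n = 3) under acute restriction against 147.6 ± 27.5 (n = 3) in old ad libitum mice, with groups that did not overlap and a change of 0.31 ± 0.17 that was not called (adjusted p = 0.917). Over the 11 classes the fitted change of Tef was positive in 10 under acute and in 9 under long-term restriction, with CA3-like nuclei negative in both (-0.09 and -0.05). In CPM, long-term mice also lay above old ad libitum mice in CA1-like nuclei (103 to 128 against 71.4 to 97.1). So they did in microglia-like (99.8 to 158 against 84.8 to 98.3) and mural-like nuclei (162 to 180 in 3 mice against 99.7 to 131 in 2). Acute mice lay above old ad libitum mice in precursor-like (105 to 136 against 89.0 to 99.8) and mural-like nuclei (142 to 236, with 2 mice in each group). None of these was called. Of all pairs, 3.69% (long-term) and 5.73% (acute) were higher without overlap. With ageing the fitted change of Tef was positive in 11 of 11 classes, from 0.01 to 0.71, and none was called. On the TMM scale groups did not overlap in 4 classes, of which CA3-like and inhibitory-like nuclei did overlap in CPM, and microglia-like and mural-like nuclei did not on either scale. The mural-like groups held 2 mice each. Of all pairs tested, 12.4% were higher in old ad libitum mice without overlap. The age change in oligodendrocyte-like nuclei was 0.47 ± 0.17 (adjusted p = 0.0821), and 0.53 (adjusted p = 0.0494) with sums of at least 50 nuclei, which drops young replicate 1. In granule-like nuclei it was 0.22 (adjusted p = 0.224), and 0.41 (adjusted p = 0.0303) without the libraries numbered 1.

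**Figure D3:**
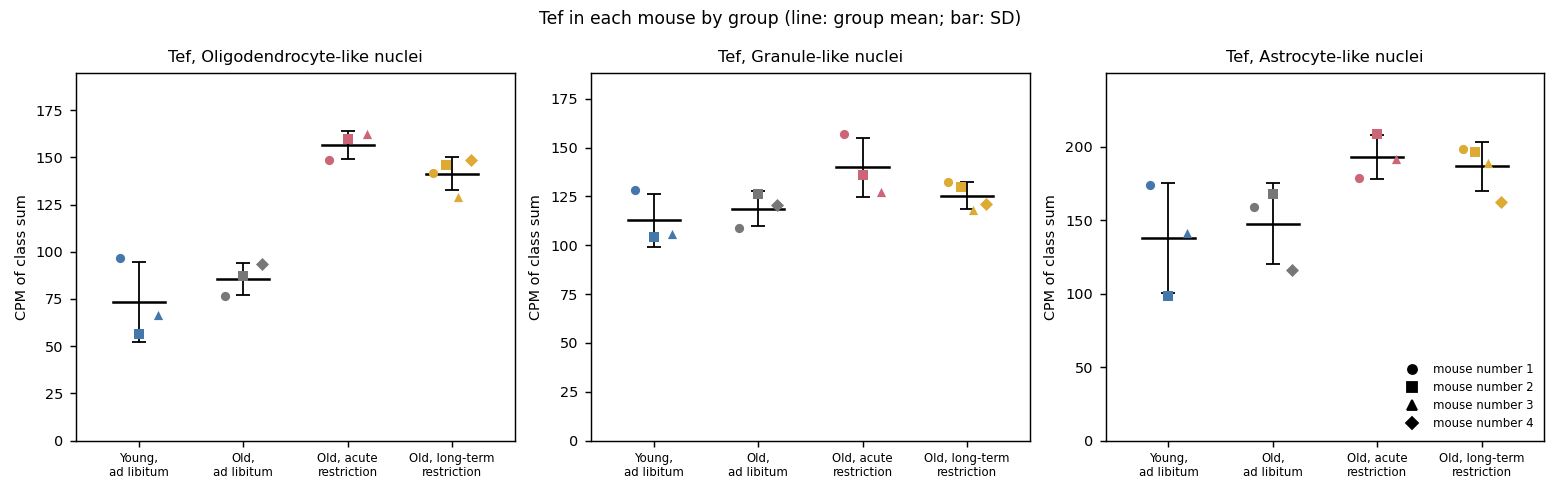
Tef level in CPM (y axis, from 0) for each mouse by group (x axis) in oligodendrocyte-like, granule-like and astrocyte-like nuclei, with marker shape giving the mouse's number in the labels, a line at the group mean and a bar of 1 SD. In oligodendrocyte-like nuclei the 7 restricted mice lie at 129 to 162 CPM and the 3 old ad libitum mice at 76.8 to 93.5 CPM.

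Ciart, the CHRONO repressor, had a positive fitted change in 7 of 7 classes under each restriction regime, and none of these 14 changes was called. The median over classes was 0.98 under acute restriction (range 0.35 to 2.13) and 0.82 under long-term restriction (0.23 to 1.87), and long-term minus acute restriction was negative in 7 of 7 classes (-0.61 to -0.03). Both regimes were set against the same old ad libitum mice, so the directions are not independent. The counts behind them were low, from 0 to 170 UMIs in a sum.

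In CA1-like nuclei the Ciart level was 5.55, 4.19 and 4.92 CPM in old ad libitum mice, 20.1, 11.7 and 12.9 CPM under acute restriction and 10.9, 11.4, 8.53 and 9.37 CPM under long-term restriction. The 3 groups did not overlap, with every acute mouse above every long-term mouse and every long-term mouse above every old ad libitum mouse. The log2 change was 1.60 ± 0.31 under acute restriction, a fold of 3.04 (unadjusted p = 0.000175 from edgeR, adjusted p = 0.986), and 1.01 ± 0.30 under long-term restriction, a fold of 2.01 (unadjusted p = 0.00521, adjusted p = 0.884). In CA1-like nuclei 2.92% of all genes had an unadjusted p below 0.05 under acute restriction and 5.35% under long-term restriction, and none was called. With a term for the libraries numbered 1, the acute change of 1.58 was called (adjusted p = 0.0458).

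In oligodendrocyte-like nuclei Ciart was 4.95, 3.19 and 4.68 CPM in old ad libitum mice, 11.4, 8.77 and 14.9 CPM under acute restriction and 9.23, 9.01, 3.00 and 9.61 CPM under long-term restriction. The acute group lay above the old ad libitum group, and long-term replicate 3, with 6 UMIs, lay below it. The acute change was 1.48 ± 0.44, a fold of 2.79 (adjusted p = 0.0854). It passed with no filter on low counts (adjusted p = 0.0476), with only the 2 groups in the fit (0.0323) and without long-term replicate 3 (0.0382). In granule-like nuclei Ciart was 3.90, 4.05 and 5.15 CPM in old ad libitum mice, 10.2, 6.58 and 7.09 CPM under acute restriction and 7.24, 9.35, 5.59 and 8.45 CPM under long-term restriction. Here both restricted groups lay above the old ad libitum group (0.85 ± 0.28 and 0.82 ± 0.26, adjusted p = 0.554 and 0.873). In CA3-like, subicular or cortical-like, inhibitory-like and astrocyte-like nuclei the groups overlapped, and in astrocyte-like nuclei the old ad libitum mice alone ran from 0 to 16.0 CPM on 0 to 9 UMIs. The change in inhibitory-like nuclei had no firm direction: it was -0.06 under long-term and -0.0021 under acute restriction with depth per nucleus as a covariate.

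**Figure D4:**
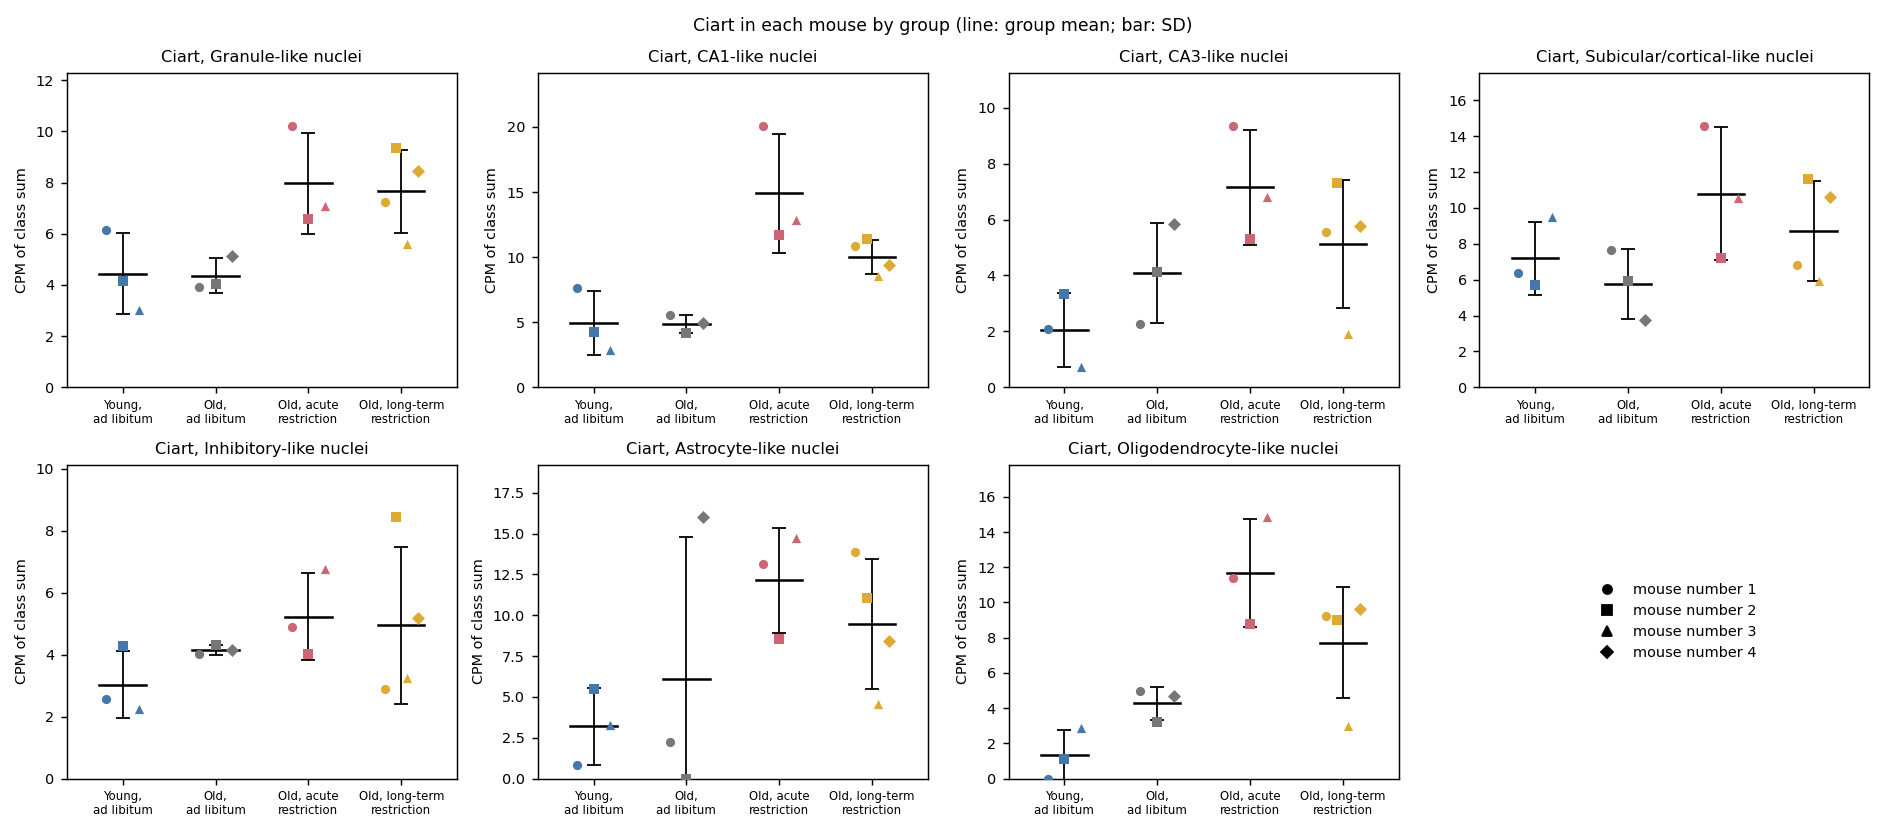
Ciart level in CPM (y axis, from 0, scaled to each panel) for each mouse by group (x axis) in the 7 classes where it passed the count filter, with a line at the group mean and a bar of 1 SD. In CA1-like nuclei the acute mice lie at 11.7 to 20.1 CPM, the long-term mice at 8.53 to 11.4 CPM and the old ad libitum mice at 4.19 to 5.55 CPM.

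Hlf, the third PAR bZIP activator, passed the ageing test in granule-like and oligodendrocyte-like nuclei, with a positive change in each. These classes had 6.99% and 7.83% of all genes called with ageing. Neither call held with depth per nucleus as a covariate, and the oligodendrocyte-like groups overlapped. In granule-like nuclei the level was 76.1, 67.0 and 77.4 CPM in young mice and 108, 106 and 96.4 CPM in old ad libitum mice. The groups did not overlap, and the restricted mice were at 118, 119 and 110 CPM under acute and 94.1, 114, 124 and 113 CPM under long-term restriction. The increase with age was 1.56-fold (log2 0.64 ± 0.12, SE; adjusted p = 0.0121, 6.99% of all genes in this class called). Against old ad libitum mice the difference was 0.16 ± 0.12 under acute and 0.11 ± 0.11 under long-term restriction, neither called, with intervals of -0.08 to 0.39 and -0.11 to 0.34 (1.96 SE).

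The granule-like increase held within each of the 2 clusters of the class, at 0.56 in cluster 0 (adjusted p = 0.0483) and 0.62 in cluster 1 (adjusted p = 0.0240), and was 0.39 (adjusted p = 0.0834) in cluster 2, an unnamed cluster whose granule markers fell just short of the naming threshold. Median UMIs per granule-like nucleus were 3769 to 5925 in young and 6553 to 11362 in old ad libitum mice, ranges that do not overlap. With this depth as a covariate the change was 0.35 (adjusted p = 0.536). Hlf spans 54.4 kb, and with the trend on gene length removed the change was 0.52 (adjusted p = 0.0178). The 7 granule markers summed to 2300 to 2978 CPM in young and 3182 to 3370 CPM in old ad libitum mice. Without overlap, the granule-like sums of old mice also held more of the markers of CA1 neurons (232 to 258 CPM in young, 305 to 344 in old), CA3 neurons (355 to 468, 549 to 558), oligodendrocytes (292 to 309, 315 to 358), their precursors (32.7 to 41.5, 45.5 to 65.0) and committed precursors (140 to 154, 166 to 188). They held less of the markers of astrocytes (865 to 971, 711 to 846), mural cells (12.9 to 29.0, 8.62 to 10.7) and ependymal or choroid plexus cells (4.82 to 7.53, 3.12 to 4.65). The part of these lists in the result was not tested. The call was lost without old ad libitum replicate 2 (0.64, adjusted p = 0.0611) or young replicate 2 (0.54, adjusted p = 0.0559).

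In oligodendrocyte-like nuclei Hlf was 10.8, 2.21 and 2.88 CPM in young mice on 1, 2 and 3 UMIs, and 7.43, 11.3 and 10.9 CPM in old ad libitum mice on 3, 39 and 28 UMIs. The groups overlapped through young replicate 1, whose sum held 48 nuclei. The fitted change was 1.84 ± 0.59 (adjusted p = 0.0499, 7.83% of genes in this class called), and counts pooled over mice gave a ratio of 3.71 with an exact counting interval of 1.62 to 10.4. Median UMIs per nucleus were 1182 to 1743 in young and 1990 to 3169 in old ad libitum mice, ranges that do not overlap, and with this depth as a covariate the call was lost (1.82, adjusted p = 0.711). It was also lost with DESeq2 (adjusted p = 0.229), with doublets retained (0.0832), with the length trend removed (0.0814) and in 9 of 13 fits that left out 1 library. Without overlap, these sums held more granule markers (754 to 937 CPM in young, 940 to 991 in old) and Cajal-Retzius markers (8.83 to 10.8, 16.2 to 26.9) and fewer inhibitory neuron markers (50.8 to 118, 37.9 to 44.6) and mural cell markers (18.8 to 21.5, 5.46 to 12.4) in old mice, and the part of these lists in the result was not tested. The difference in age response between oligodendrocyte-like and granule-like nuclei, 1.22 ± 0.58, was not called (adjusted p = 0.40, 1.56% of genes called). The fitted change of Hlf was positive in 11 of 11 classes with ageing, and groups did not overlap in inhibitory-like, microglia-like and endothelial-like nuclei (2 mice in each group) as well. Over all pairs tested, 12.4% were higher in old ad libitum mice without overlap, and 47.7% had a positive change. Endothelial-like nuclei held 0 Hlf UMIs in young and 27 in old ad libitum mice, of which 20 came from 1 library. With the young group set to 3 UMIs the pooled ratio was 5.19. This ratio leaves out the counting error of the old group and the spread between mice, and the change was not called (adjusted p = 0.977).

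Nfil3, which opposes Hlf at D-boxes, was lower in old ad libitum mice in each of its 4 tested classes, and none of the 4 changes was called. In granule-like nuclei it was 5.37, 6.58 and 5.72 CPM in young mice on 69 to 90 UMIs and 4.69, 3.46 and 2.87 CPM in old ad libitum mice on 24 to 59 UMIs. These groups did not overlap, nor did those of CA1-like and inhibitory-like nuclei, beside 9.49% of all pairs tested that were lower without overlap. The change was -0.56 ± 0.24 in granule-like (adjusted p = 0.148), -0.69 ± 0.41 in CA1-like, -0.58 ± 0.40 in inhibitory-like and -0.89 ± 0.41 in subicular or cortical-like nuclei. In oligodendrocyte-like nuclei, where Nfil3 missed the count filter of the class alone, pooled counts were 28 UMIs in old ad libitum mice, 5 under acute and 6 under long-term restriction, or 4.36, 0.899 and 0.985 CPM. The pooled ratio was 0.206 (0.0622 to 0.541, counting error only) for acute and 0.226 (0.0765 to 0.556) for long-term restriction. These intervals leave out the spread between mice, and single sums of all 13 mice ran from 0 to 10.8 CPM. The test of a difference from granule-like nuclei, fitted on both classes, gave -2.36 ± 0.66 for acute (adjusted p = 0.0602) and -1.84 ± 0.64 for long-term restriction (adjusted p = 0.282).

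**Figure D5:**
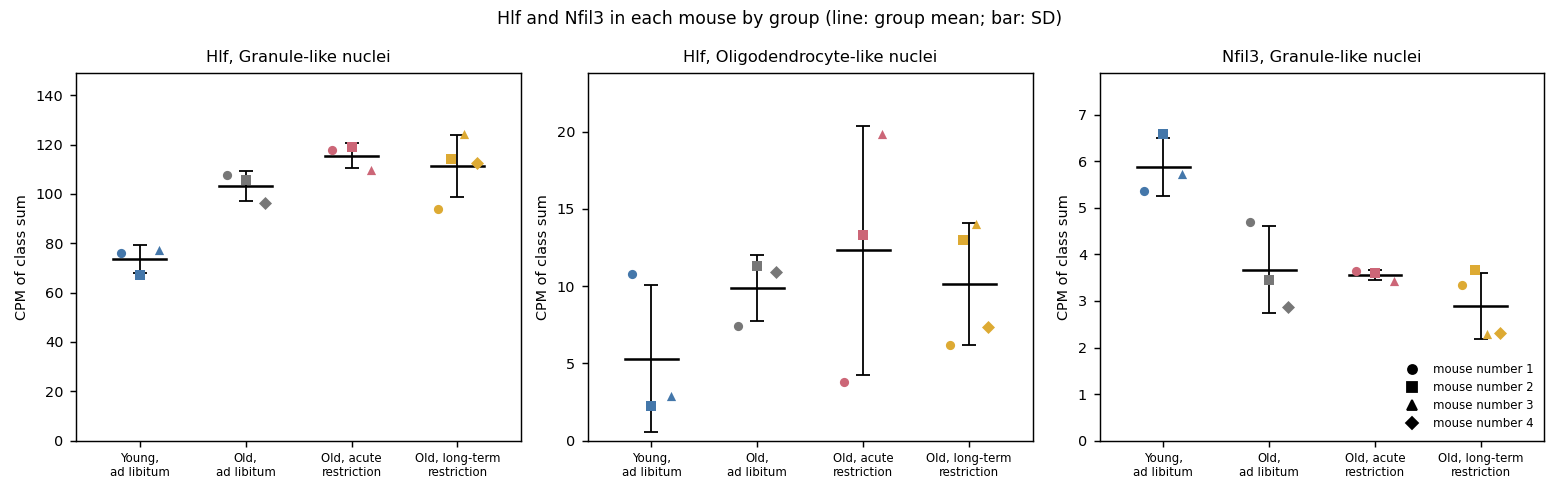
Level in CPM (y axis, from 0, scaled to each panel) for each mouse by group (x axis) of Hlf in granule-like and oligodendrocyte-like nuclei and of Nfil3 in granule-like nuclei, with a line at the group mean and a bar of 1 SD. Hlf in granule-like nuclei lies at 67.0 to 77.4 CPM in young mice and at 94.1 to 124 CPM in the old groups, and Nfil3 at 5.37 to 6.58 CPM in young and 2.28 to 4.69 CPM in old mice.

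Dbp, whose rhythm is among the steepest of clock outputs in many tissues, was called in no comparison between groups. In astrocyte-like nuclei it was 40.8, 42.8 and 22.2 CPM in young, 40.8, 38.4 and 60.1 CPM in old ad libitum mice, 52.6, 38.8 and 32.7 CPM under acute and 41.2, 41.4, 25.1 and 39.1 CPM under long-term restriction, groups that overlap throughout. Under acute restriction its fitted change was positive in 7 of 8 classes, from -0.09 to 0.70, with non-overlapping groups in oligodendrocyte-like nuclei only (0 to 6.95 CPM in old ad libitum and 8.44 to 15.2 CPM in acute mice, on at most 26 UMIs). With ageing its changes ran from -0.76 in inhibitory-like nuclei (12.1, 14.4 and 9.86 CPM in young and 6.62, 5.39 and 7.97 CPM in old ad libitum mice, without overlap; unadjusted p = 0.00922 from edgeR, adjusted p = 0.147) to 0.96 in CA3-like nuclei (adjusted p = 0.382).

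Bhlhe40 in astrocyte-like nuclei was 71.8, 53.7 and 37.9 CPM in young, 54.2, 49.8 and 40.1 CPM in old ad libitum mice, 54.6, 40.7 and 53.2 CPM under acute and 56.9, 70.4, 54.7 and 63.3 CPM under long-term restriction. The 4 long-term mice lay above the 3 acute mice there by a narrow margin, and no comparison was called. With ageing its fitted change was negative in 7 of 7 classes (median -0.34), again with none called (lowest adjusted p = 0.213). Bhlhe41 in microglia-like nuclei was 78.2, 65.7 and 43.5 CPM in young, 86.0, 70.1 and 77.6 CPM in old ad libitum mice, 21.3, 55.0 and 55.2 CPM under acute and 49.4, 55.1, 32.6 and 92.9 CPM under long-term restriction, on 2 to 23 UMIs each. The acute mice lay below the old ad libitum mice, by -0.66 on the log2 scale, and the change was not called. Over its 9 classes Bhlhe41 was negative in 7 under acute and in 5 under long-term restriction, with medians of -0.11 and -0.05.

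Averaged over the classes measured in all mice where a gene passed the filter, Tef reached 6.62 ± 0.05 log2 CPM in old ad libitum mice (SD, n = 3), 6.85 ± 0.08 under acute restriction (n = 3) and 6.89 ± 0.08 under long-term restriction (n = 4). Long-term restriction exceeded ad libitum feeding by 0.26 (exact two-sided permutation test, p = 0.0286, the smallest that 4 against 3 mice allow; 0.35 adjusted over 28 tests). Ciart averaged 2.33 ± 0.32 in old ad libitum mice, 3.33 ± 0.30 under acute and 2.98 ± 0.40 under long-term restriction, where acute mice did not overlap with ad libitum mice (exact permutation test, p = 0.1, the smallest that 3 against 3 mice allow). Hlf averaged 5.20 ± 0.05 in young and 5.69 ± 0.10 in old ad libitum mice, and Nfil3 averaged 2.22 ± 0.10 and 1.61 ± 0.17, both without overlap (exact permutation test, p = 0.1). Bhlhe40 averaged 3.68 ± 0.22 in young mice, 3.27 ± 0.19 in old ad libitum mice and 3.59 ± 0.07 under acute restriction. Its old ad libitum mice lay below both other groups without overlap, and acute Tef lay above ad libitum Tef (exact permutation test, p = 0.1 each). For Bhlhe40 the margin to young mice was very small, with old replicate 2 at 3.427 and young replicate 2 at 3.428. The share of all genes without overlap in such averages is not given here. No such test passed after adjustment over 28. This averaging was chosen after the data had been seen.

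Other genes of the clock gave a background to these values. In oligodendrocyte-like nuclei, where Tef rose, acute restriction also came with higher Per1 (log2 1.52 ± 0.29, adjusted p = 0.00246) and Per2 (1.59 ± 0.31, adjusted p = 0.00339), repressors of the core loop, and Por (1.18 ± 0.22, adjusted p = 0.00167), an electron donor to P450 enzymes listed as a clock-controlled output. Per2 was 14.9, 7.53 and 6.24 CPM in old ad libitum mice, 22.8, 24.7 and 23.9 CPM under acute and 24.6, 24.5, 16.0 and 15.3 CPM under long-term restriction, so that all restricted mice lay above all old ad libitum mice. Per2 was higher under long-term restriction as well (1.31 ± 0.30, adjusted p = 0.0484), and under acute restriction in astrocyte-like nuclei (1.15 ± 0.20, adjusted p = 0.0463). By list, and beside 0.207% of all pairs called and 1.84% of genes in oligodendrocyte-like nuclei, acute restriction gave 3 called pairs of 33 in the negative arm (5 genes), 1 of 48 among the other outputs (6 genes), and 0 of 27, 39 and 43 in the positive arm, the nuclear receptor loop and the clock protein turnover genes. Long-term restriction (0.0474% of all pairs and 0.343% of oligodendrocyte-like genes called) gave 1 of 33 in the negative arm and 0 in each of the other 4 clock lists. Of 34 immediate early gene pairs none was called in either.

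With ageing, 7 of 224 list pairs were called, all higher in old mice, beside 2.07% of all pairs tested and 6.99% and 7.83% of all genes in granule-like and oligodendrocyte-like nuclei, the classes of 6 of the 7 calls: Npas2 (0.64) and Rora (0.69) in granule-like nuclei, Npas2, Per2, Rora (0.52) and Nr1d2 (0.86) in oligodendrocyte-like nuclei, and Rora (0.57) in precursor-like nuclei. Npas2 is a partner of BMAL1 in place of CLOCK, and Rora and Nr1d2 act on Arntl through ROR elements. Npas2 and Per2 in oligodendrocyte-like nuclei rested on 1 and 2 UMIs in young mice, with pooled old to young ratios of 12.7 (counting interval 2.15 to 514) and 7.62 (2.00 to 64.8). The median log2 change over list pairs was 0.45 for the negative arm under acute restriction, beside 0.17 for the 57 pairs of output factors.

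Across the 13 mice, the mean levels of some output factors moved together. Of 28 relations tested (21 pairs of the 7 genes, and each gene with Arntl), 4 passed a permutation test of Pearson's r. Tef and Ciart had r = 0.78 (p = 0.0013, adjusted p = 0.0342; Spearman's rho 0.79, p = 0.00218, adjusted p = 0.061), with r = 0.76 when the 2 mice farthest from the median of Tef were left out. Dbp and Ciart had r = 0.73 (p = 0.00402, adjusted p = 0.0342; rho 0.73, p = 0.00598, adjusted p = 0.0837) and r = 0.56 without the 2 farthest mice. Tef and Nfil3 had r = -0.75 (p = 0.00375, adjusted p = 0.0342; rho -0.57, p = 0.0448, adjusted p = 0.233) and Hlf and Nfil3 had r = -0.74 (p = 0.00488, adjusted p = 0.0342; rho -0.46, p = 0.116, adjusted p = 0.294), falling to -0.40 and -0.54 without the 2 farthest mice. None of the 28 Spearman relations passed after adjustment.

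Group differences enter these values. Within groups, as deviations from the group mean, Dbp and Ciart kept r = 0.79 (adjusted p = 0.0204), whereas Tef and Ciart had 0.11, Tef and Nfil3 -0.08 and Hlf and Nfil3 0.37, none of which passed. Ciart and Bhlhe41 (r = 0.81, adjusted p = 0.0204) and Tef and Arntl (r = -0.78, adjusted p = 0.0271) passed within groups and not over all mice. Deviations from group means hold fewer independent values than there are mice, so these within-group p-values may be too small. Without the libraries numbered 1 the relation of Ciart with Arntl was r = -0.91 over 9 mice (permutation test, adjusted p = 0.0014), that of Dbp with Arntl -0.82 and that of Tef with Ciart 0.82 (adjusted p = 0.0452 and 0.0475), while Dbp with Ciart had 0.77 (adjusted p = 0.0633). The relation of Ciart with Arntl was -0.41 over all 13 mice (adjusted p = 0.326). All genes of a mouse share its library and the same class totals.

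The likeness of a gene's variation between classes of the same mice differed from gene to gene. For Ciart the correlation over 13 mice between 2 classes had a median of 0.61 over 21 class pairs (0.29 to 0.93), and for Tef 0.54 over 36 pairs (0.10 to 0.88). It was 0.52 over 6 pairs for Nfil3 (0.32 to 0.73). The other genes had class pairs on both sides of 0, with medians of 0.31 over 36 pairs for Hlf (-0.32 to 0.63) and for Bhlhe41 (-0.24 to 0.69), 0.27 over 28 pairs for Dbp (-0.63 to 0.87) and 0.08 over 21 pairs for Bhlhe40 (-0.55 to 0.74). Classes of 1 mouse share its library, and these values are descriptions without a test.

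The genes whose pattern was most like each factor were found over the sums of all mice and classes, with each class centred on its mean. For Ciart the 3 most alike of 9638 genes were Nr1d2 (r = 0.65), Per2 (0.62) and A330023F24Rik (0.61) over 91 sums, the first 2 of them clock genes. For Dbp they were Hdgf (0.65), Adgra1 (0.64) and Mlec (0.61) over 104 sums, for Tef Vps13a (0.61), Lncpint (0.58) and Ankrd12 (0.54) over 135 sums, and for Hlf Fmnl2 (0.61), Baz1b (0.59) and Elp4 (0.57) over 135 sums. For Nfil3 they were Ubl5 (0.74), Unc50 (0.69) and Rpl7 (0.69) over 52 sums, for Bhlhe40 Bcl6 (0.55), Prmt1 (0.52) and Mob4 (0.50) over 91 sums, and for Bhlhe41 Zfand5 (0.49), Orc4 (0.45) and Ube2j1 (0.43) over 117 sums. Only genes that passed the filter in the same classes as the factor were compared. They numbered 8228 for Dbp, 1280 for Tef and for Hlf, 12420 for Nfil3, 9638 for Bhlhe40 and 3416 for Bhlhe41. By rank of class means, Spearman's rho over the classes where a factor passed the filter, the nearest genes were Gm21954, Acad10 and Ttyh1 for Dbp (0.95 to 0.90 over 8 classes), Sp3, Ncor1 and Nr2c2 for Tef (0.97 to 0.94 over 11), and Usp3, Stt3b and Slc1a2, an astrocytic glutamate transporter, for Hlf (0.85 to 0.82 over 11). They were Ier5, Ubtd1 and Pradc1 for Ciart (0.96 to 0.93 over 7), 1700094D03Rik, Ifnar2 and Rsph9 for Bhlhe40 (0.96 over 7) and Vti1a, Kif5b and Zfp91 for Bhlhe41 (0.97 to 0.95 over 9). For Nfil3, with 4 classes, 408 genes shared a rho of 1, so no gene is named. The sums share libraries and depth, and no p is given.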

How the data were processed

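Nuclei of 13 hippocampus samples were profiled with 10x 3′ chemistry. Per the submitters' processing notes, the authors used Cell Ranger 4.0.0 and mm10; the annotation release, the counting of introns and strand, and any correction for free RNA are not given in the sources used here. The deposited values are UMI counts per gene and barcode, 742437104 UMIs over 105759 barcodes. Nuclei needed 500 or more genes and no more than 5% mitochondrial UMIs (105427 kept). Doublets were scored with Scrublet in scanpy 1.11.5 and the highest scores, 0.8% per 1000 nuclei of a library, were removed (7386, or 7.01%). Nuclei were clustered (2000 variable genes, 30 components, Leiden resolution 1) without the members and the clock lists, and clusters were named from marker lists (at least 3 raised markers, mean log2 fold of at least 1).

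Counts were summed per mouse and class (at least 20 nuclei) and fitted in edgeR 4.0.16 (TMM, filterByExpr, quasi-likelihood test) over all 13 libraries, 1 fit per class, with Benjamini-Hochberg adjustment over all genes of the class. The script was tested on simulated counts. Log2 CPM for levels used a prior count of 2 scaled to library size. Class neighbours were compared with exact sign-flip tests, class averages with exact permutation tests, and relations over mice with 100000 permutations. Named genes of likeness were the 3 of highest correlation. Poisson and ratio intervals are at 95% and cover counting error only, and a count of 0 allows 3 UMIs. Promoters came from RefSeq (GRCm38.p6) and positions from GENCODE M21. The members and lists were chosen with earlier results of these data known. Alternatives were DESeq2 1.42.0, no filter, a replicate block, a term for libraries numbered 1, depth as a covariate, at least 50 nuclei, doublets retained, 2 groups only and each library left out. Others, chosen after seeing the data, were the removal of a gene length trend, other granule clusters, CPM without a logarithm and the class averages.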

Additional observations from a re-analysis of the deposited data

Results flagged for a closer look

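In 53 groups of 4 mice or more, the gap of the highest or lowest mouse to its nearest neighbour was set against the range of the group, and 5 groups passed the 95% critical value; chance passes about 1 group in 20. All 5 lay in the long-term restriction group, the only group large enough to be examined. Replicate 3 was lowest for Dbp in CA3-like nuclei (log2 CPM 2.25 on 6 UMIs against 3.18 to 3.29, gap ratio 0.894) and in astrocyte-like nuclei (4.75 on 11 UMIs against 5.37 to 5.48, gap ratio 0.849). It was also lowest for Ciart in oligodendrocyte-like nuclei (2.12 on 6 UMIs against 3.35 to 3.50, gap ratio 0.894) and for Bhlhe41 in astrocyte-like nuclei (4.47 on 9 UMIs against 5.17 to 5.25, gap ratio 0.890). Replicate 2 was highest for Bhlhe40 in CA3-like nuclei (2.44 on 14 UMIs against 2.01 to 2.07, gap ratio 0.858).

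The change of Tef differed between oligodendrocyte-like and granule-like nuclei, by 0.67 under long-term restriction (edgeR, adjusted p = 0.00841) and by 0.66 under acute restriction (adjusted p = 0.00561). Without the libraries numbered 1 these differences were 0.67 (adjusted p = 0.0184) and 0.71 (adjusted p = 0.00251).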

How the results depend on the processing

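The number of gene and class pairs called with ageing (2) was 1 with DESeq2, 1 with doublets retained and 1 with the gene length trend removed. It was 0 with depth per nucleus as a covariate, 3 with at least 50 nuclei per sum and 3 without the libraries numbered 1 (Tef added in each). It ran from 0 to 3 when each library was left out. Long-term restriction (1) gave 0 with the depth covariate and 0 to 1 over left-out libraries. Acute restriction (1) gave 2 with no filter, 2 with a term for the libraries numbered 1, 2 with only the 2 groups compared, and 1 to 2 over left-out libraries. Long-term against acute restriction gave 0 in every alternative run. The cause of these differences was not tested. Tef in oligodendrocyte-like nuclei under acute restriction was called in every alternative run. Of the 56 class neighbours, 19 differed, 14 with TMM scaling, 16 without a logarithm and 10 without the libraries numbered 1, which leaves 9 mice. Ciart in inhibitory-like nuclei reversed to -0.060 (long-term) and -0.0021 (acute) with the depth covariate, and over left-out libraries the long-term change ran from -0.18 (without long-term replicate 2) to 0.45.

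Samples with the same number in the labels did not deviate together in every pair (correlations from -0.12 to 0.75 in granule-like, -0.08 to 0.53 in astrocyte-like and -0.07 to 0.18 in oligodendrocyte-like sums), so the numbers were not taken as pairs. Their median correlation was nevertheless higher than that of samples with different numbers in each of these classes. It was 0.32 against -0.09 in granule-like, 0.12 against -0.10 in astrocyte-like and 0.11 against -0.06 in oligodendrocyte-like sums. The 6 pairs of libraries numbered 1 did deviate together in granule-like (0.32 to 0.75) and astrocyte-like sums (0.25 to 0.53), and less so in oligodendrocyte-like sums (0.085 to 0.18). A term for these libraries left 2, 1, 2 and 0 pairs called. With the replicate block the counts were 2, 1, 1 and 0, and the changes were 0.70 and 2.25 for Hlf in granule-like and oligodendrocyte-like nuclei and 0.70 and 0.85 for Tef under long-term and acute restriction. Oligodendrocyte-like sums of the libraries numbered 1 rest on 48 to 183 nuclei, and whether depth set the number of calls was not tested.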
